A study of Mus musculus with 4 samples.

Results

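The MHC class I presentation genes were followed across the cell classes of mouse pancreatic islets. They are B2m, H2-K1, H2-D1, H2-T23, H2-Q7, Tap1, Tap2, Tapbp and Nlrc5, taken by symbol from the gene list that the 4 libraries share, where they are 9 of 32285 genes. All 9 symbols were found once and each carried the identifier that the GENCODE M21 annotation gives it. The rule that takes them uses no measured value. The study asked what a missense allele of Pax4, a transcription factor gene of islet development, does to islet cells. Male mice homozygous for the knock-in allele (HH) were compared with wild-type littermates (WT), on standard chow diet (SCD) when 12 weeks old or following 4 weeks of high-fat diet (HFD) when 16 weeks old. Islets of 2 to 3 mice were pooled for each library, the islets were broken into single cells with enzyme, and 1 droplet 3′ library was made for each of WT SCD, HH SCD, WT HFD and HH HFD. All groups share the C57BL6/N background and the sex. HH mice carry the allele in every cell of the body, so the immune and endothelial cells of HH islets carry it as well.

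MHC class I molecules show peptides from inside a cell to CD8 T cells. A heavy chain (H2-K1 and H2-D1 encode the classical ones, H2-T23 and H2-Q7 non-classical ones) pairs with the light chain beta-2-microglobulin, encoded by B2m, and without the light chain few complexes reach the cell surface. Peptides are cut by the proteasome, whose immunoproteasome form is induced by interferon, and are pumped into the endoplasmic reticulum by the transporter that Tap1 and Tap2 encode. Tapasin, encoded by Tapbp, holds the empty heavy chain at that transporter. NLRC5 is the transactivator of the class I genes and is itself induced by interferon. In islets the pathway is known above all from type 1 diabetes, where CD8 T cells recognise beta cells and class I is raised on the islet cells.

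Of the 9 genes, 7 lie in the MHC region on chromosome 17, within 2117 kb of each other in GRCm38. From Tapbp at chr17:33915899-33929292 the order runs over H2-K1 at chr17:33996017-34000347, Tap1 at chr17:34187553-34197225, Tap2 at chr17:34203527-34216321, H2-D1 at chr17:35262730-35267499 and H2-Q7 at chr17:35439155-35443773 to H2-T23 at chr17:36029773-36032855. B2m lies apart on chromosome 2 (chr2:122147686-122153083) and Nlrc5 on chromosome 8 (chr8:94434356-94527272). All 9 are annotated as protein coding.

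The class I genes are known to share short elements before their start sites, and 3 stretches are shown because the light chain gene B2m and the heavy chain genes H2-K1 and H2-Q7 differed widely below in how far apart the cell classes stood, and because their windows were free of exons. Each runs from 200 to 11 bases before the RefSeq start in GRCm38.p6, 5′ to 3′ on the gene's strand. B2m is at chr2:122147487-122147676 on the plus strand, H2-K1 at chr17:34000358-34000547 on the minus strand and H2-Q7 at chr17:35438955-35439144 on the plus strand. Capitals mark the kappa B motif (GGGGATTCCC), the interferon element (GAANNGAAAC in H2-K1 and H2-Q7, where it lies on the opposite strand, and the looser GAAANNGAAA in B2m) and the Y box (CCAAT, read on either strand).
B2m: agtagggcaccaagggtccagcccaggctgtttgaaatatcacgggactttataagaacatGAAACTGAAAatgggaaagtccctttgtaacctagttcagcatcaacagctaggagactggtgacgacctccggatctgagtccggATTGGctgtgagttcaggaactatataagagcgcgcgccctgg
H2-K1: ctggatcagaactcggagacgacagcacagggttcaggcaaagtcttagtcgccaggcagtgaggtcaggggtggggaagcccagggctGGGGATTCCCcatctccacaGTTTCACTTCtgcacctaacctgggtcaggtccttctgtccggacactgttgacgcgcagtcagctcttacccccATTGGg
H2-Q7: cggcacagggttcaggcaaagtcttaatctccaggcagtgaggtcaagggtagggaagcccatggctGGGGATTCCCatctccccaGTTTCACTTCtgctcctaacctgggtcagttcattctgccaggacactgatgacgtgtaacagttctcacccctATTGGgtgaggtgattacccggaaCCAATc

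The kappa B letters stood in the 250 bases before the start of 3 members, H2-K1 (-111 to -102), H2-D1 (-171 to -162) and H2-Q7 (-133 to -124), and in 0.0852% of 32851 gene windows of that length. The same 3 windows held the interferon element, at -91 to -82, -151 to -142 and -114 to -105, against 1.45% of all windows. The looser element stood in B2m (-139 to -130) and H2-T23 (-124 to -115), against 2.98% of all windows. TGACG, the core of the X2 box that binds CREB-type factors, was found in B2m, H2-K1, H2-D1, H2-Q7 and Tap1 and in 17.8% of windows, and CCAAT in all 7 members with a window and in 33.8% of windows. No motif overlapped another in the 3 stretches printed. RefSeq windows were at hand for 7 of the 9 members. Tap2 and Nlrc5 were not among them.

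The 4 libraries held 22218 barcodes and 340006331 UMIs, or unique molecules counted, with 68011082 to 104810105 UMIs in a library. After filters and doublet removal, clusters were named from marker genes as "X-like", from a clustering that left out all 9 members and the wider pathway lists. Endocrine-like cells (beta-, alpha-, delta- and PP-like) numbered 1643 to 3783 in a library, endothelial-like cells 177 to 447 and immune-like cells (macrophage-, B cell-, T cell- and dendritic-like) 77 to 676. Of 24 clusters, 2 stayed unnamed. The immune-like mixture differed between libraries, with 10 of 77, 60 of 139, 391 of 676 and 53 of 303 cells T cell-like in WT SCD, HH SCD, WT HFD and HH HFD, and endothelial-like cells of SCD and HFD lay mostly in different clusters. Library pairs shared 6 to 11 cell barcodes. Pax4 had 0 UMIs in all 4 libraries, so its level does not check the genotype labels.

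Free RNA was gauged by hormone transcripts, which made up 47.5% to 53.9% of all UMIs and 2.81% to 6.80% of the UMIs in endothelial-like and immune-like cells. In the other direction, the 9 macrophage markers summed to 49.1 to 61.7 CPM in beta-like cells against 22721 to 30703 CPM in macrophage-like cells, and the 8 endothelial markers to 3.56 to 7.66 CPM against 22714 to 27269 CPM in endothelial-like cells. CPM means a gene's UMIs in all cells of a class in a library, scaled to a common total of that sum. The class II gene Cd74, carried by antigen-presenting cells, stood at 2.02, 1.71, 5.56 and 16.6 CPM in beta-like cells of WT SCD, HH SCD, WT HFD and HH HFD, the order used for every run of 4 values below. No islet class lacks class I genes, so no class measures their background directly.

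B2m, the light chain, separated the endocrine cells from all other classes. In beta-like cells it stood at 24.3, 19.2, 46.0 and 33.3 CPM (exact Poisson 95% intervals 22.96 to 25.6, 18.1 to 20.5, 43.8 to 48.4 and 31.9 to 34.7) and in alpha-like cells at 32.4, 32.3, 53.7 and 54.1 CPM. Delta-like cells had 38.8, 46.6, 61.2 and 59.0 CPM and PP-like cells 18.0, 18.0, 25.7 and 44.7 CPM. In endothelial-like cells B2m was at 1866, 1754, 2363 and 2119 CPM, so every endothelial-like value was above every endocrine one. Macrophage-like cells had 2470, 2152, 3677 and 2543 CPM and T cell-like cells 2916, 2087, 1973 and 2324 CPM. Among the classes found in all 4 libraries, the order by mean ± SD ran from macrophage-like (2710 ± 666 CPM) over T cell-like (2325 ± 420), dendritic-like (2295 ± 1120), endothelial-like (2025 ± 272) and stromal-like cells (1248 ± 469) down to delta-like (51.4 ± 10.6), alpha-like (43.1 ± 12.4), beta-like (30.7 ± 11.8) and PP-like cells (26.6 ± 12.6). Neighbours within the upper set, and within the endocrine set, had overlapping ranges.

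The classical heavy chains were less far apart. H2-K1 stood at 217, 205, 246 and 215 CPM in beta-like cells, 261, 280, 331 and 323 CPM in alpha-like cells and 427, 441, 606 and 551 CPM in delta-like cells. Endothelial-like cells had 1651, 1485, 2195 and 1724 CPM of H2-K1 and macrophage-like cells 1658, 1276, 2144 and 1501 CPM. T cell-like cells had the highest mean, 3236 ± 709 CPM (SD, n = 4). The endocrine values of H2-K1 lay below all endothelial-like and immune-like values, while endothelial-like and macrophage-like cells overlapped. H2-D1 was at 104, 103, 135 and 123 CPM in beta-like cells and at 2219, 2075, 3187 and 2688 CPM in endothelial-like cells, with a mean of 2542 ± 503 CPM, close to that of T cell-like cells, which stood higher in 3 of 4 libraries. In each library the CPM of H2-D1 was lowest in beta-like, higher in alpha-like and highest in delta-like cells of these 3 classes, and the same order held for B2m, H2-K1 and H2-T23. Once the classes were scaled by TMM, as given below, it held for H2-D1 and H2-T23 but not for B2m or H2-K1.

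**Figure D1:**
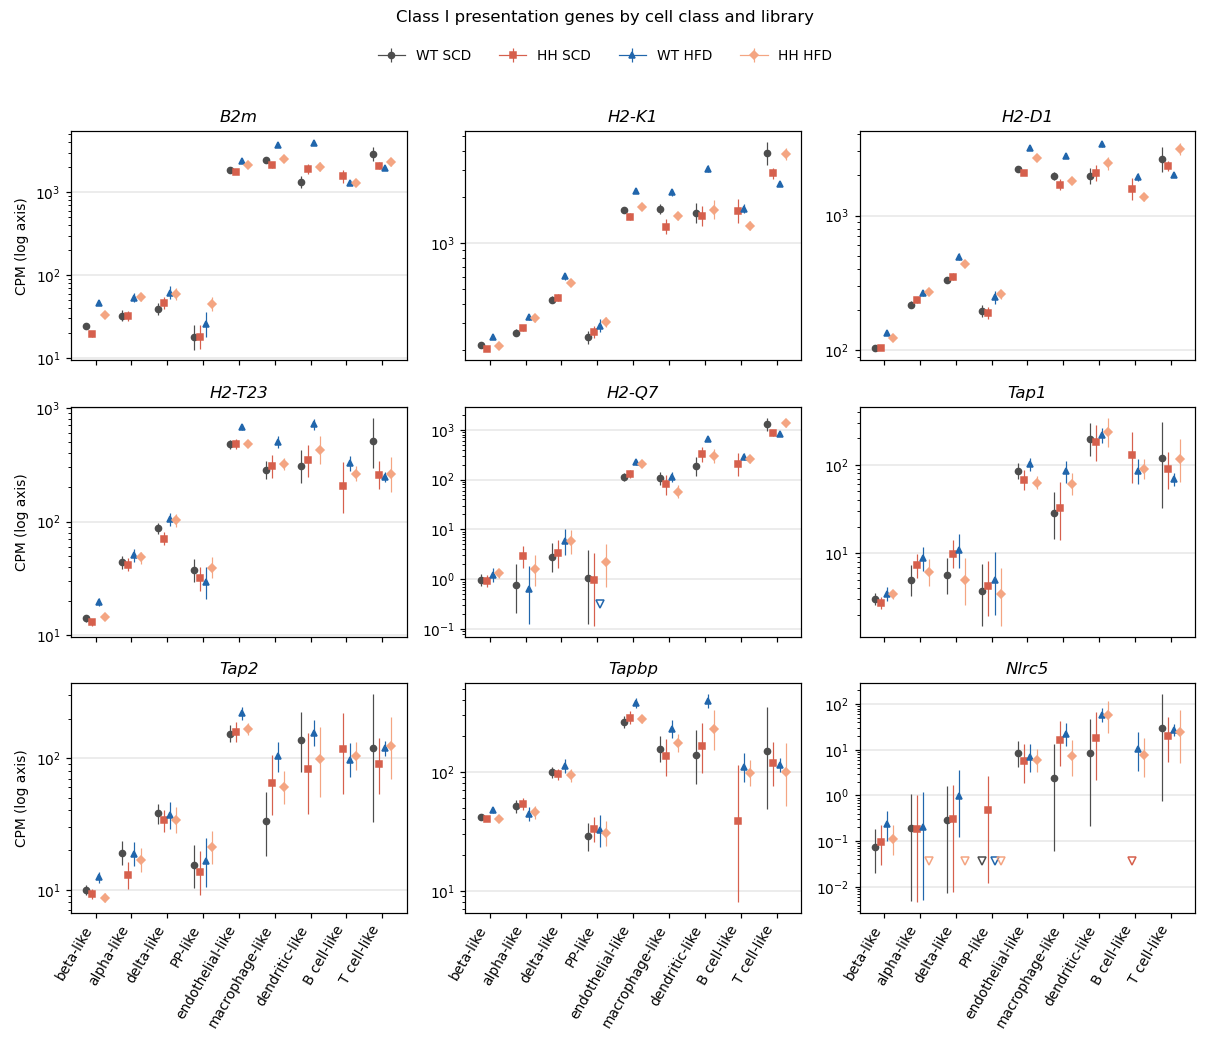
CPM of each of the 9 genes in each class (log axis), with 1 panel per gene, 1 colour per library and the exact Poisson 95% interval of each sum. Open triangles mark sums with 0 UMIs, and the 4 endocrine classes sit lowest in the panels of B2m and H2-D1, with B2m at 18.0 to 61.2 CPM there against 1754 to 2363 CPM in endothelial-like cells.

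Of the non-classical heavy chains, H2-T23 encodes the Qa-1 antigen, a ligand of receptors on natural killer and CD8 T cells. It was at 14.2, 13.03, 19.8 and 14.4 CPM in beta-like cells and 477, 480, 679 and 486 CPM in endothelial-like cells, its class of highest mean. Delta-like cells had 87.9, 70.6, 104.5 and 102.6 CPM of H2-T23, above all the beta-like values. H2-Q7 encodes a Qa-2 antigen and was close to absent from endocrine cells, at 0.972, 0.928, 1.21 and 1.31 CPM in beta-like cells (53, 49, 41 and 92 UMIs). It reached 1293, 857, 833 and 1348 CPM in T cell-like cells and 114.5, 129.5, 225 and 204 CPM in endothelial-like cells. T cell-like cells stood highest for H2-Q7 in all 4 libraries. Of the 90-base stretches in the last 500 bases of its transcripts, 4.73% were shared with H2-Q5, and 13.4% of those of H2-T23 with H2-T-ps, Hook2 or Rab33b, so some reads of these genes may have gone to another gene. Of those of H2-K1, 0.151% were also found in H2-D1, H2-Q1, H2-Q6 or H2-Q7. Of the stretches of B2m, H2-D1, Tap1, Tap2, Tapbp and Nlrc5, 0 were found in the transcripts of another gene.

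The peptide transporter and its partner followed. Tap1 had 3.01, 2.73, 3.46 and 3.41 CPM in beta-like cells, its lowest class by mean, and 86.1, 68.2, 101.1 and 63.2 CPM in endothelial-like cells. Dendritic-like cells, which specialise in presenting antigen to T cells, were highest for Tap1 at 198, 182, 217 and 238 CPM. Tap2 and Tapbp were highest in endothelial-like cells instead, Tap2 at 174 ± 30.2 CPM and Tapbp at 301 ± 52.4 CPM (SD, n = 4). Tap2 stood at 10.0, 9.30, 12.4 and 8.71 CPM in beta-like cells, and Tapbp at 42.0, 40.4, 47.3 and 40.3 CPM. Among the classes found in all 4 libraries, Tapbp had the smallest fold between its highest and lowest means of the 9, with PP-like cells lowest at 31.0 ± 1.99 CPM. Nlrc5, the transactivator, was sparse everywhere. It had 4, 5, 8 and 8 UMIs in all beta-like cells of a library (0.0733, 0.0947, 0.237 and 0.114 CPM) and 10, 5, 9 and 13 UMIs in endothelial-like cells (8.61, 5.78, 7.002 and 5.995 CPM). The highest means of Nlrc5 were in dendritic-like cells (35.9 ± 26.2 CPM) and T cell-like cells (25.5 ± 4.31 CPM).

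The 9 genes together took 415, 394, 511 and 439 CPM in beta-like cells, 1032, 1051, 1434 and 1292 CPM in delta-like cells and 6839, 6440, 9355 and 7736 CPM in endothelial-like cells. Within that sum the share of B2m differed between classes. B2m made up 4.88% to 9.003% of the members' UMIs in beta-like cells, 25.3% to 27.4% in endothelial-like cells and 36.9% to 39.0% in macrophage-like cells. Set against H2-K1 in the same sums, there were 0.0939 to 0.187 UMIs of B2m per UMI of H2-K1 in beta-like cells, 0.115 to 0.168 in alpha-like, 0.0910 to 0.107 in delta-like and 0.0681 to 0.146 in PP-like cells. The same ratio was 1.08 to 1.23 in endothelial-like, 1.49 to 1.71 in macrophage-like and 0.610 to 0.814 in T cell-like cells. The highest endocrine ratio, 0.187 in WT HFD beta-like cells, was thus below the lowest value of each of these classes. The ratio compares classes for the same 2 transcripts and says nothing of how much protein each gives.

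**Figure D2:**
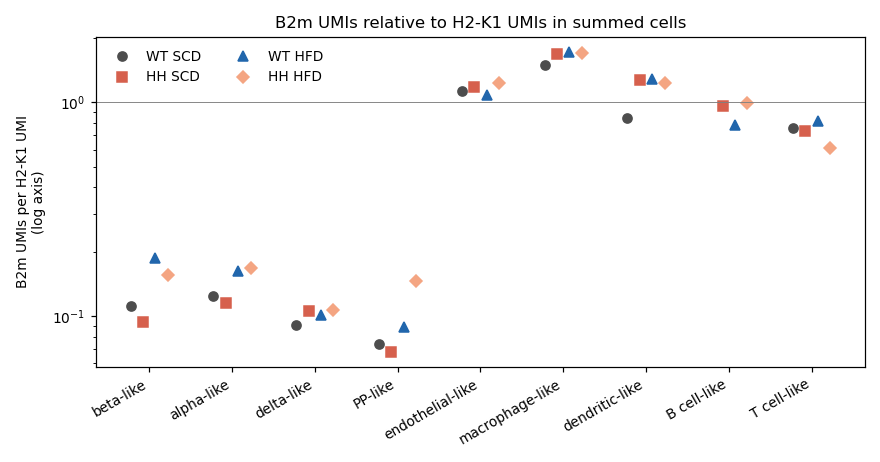
UMIs of B2m per UMI of H2-K1 (log axis) in each class, with 1 point per library. The 4 endocrine classes lie between 0.0681 and 0.187, and T cell-like cells between 0.610 and 0.814.

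In single cells, B2m was found in few beta-like cells at equal depth. After each cell was thinned to 3000 UMIs, 7.41%, 5.19%, 10.7% and 9.62% of beta-like cells had a UMI of B2m, against 36.8%, 31.3%, 52.7% and 43.6% unthinned at median depths of 26394, 26200, 29785 and 24174.5 UMIs. In thinned endothelial-like cells the share of B2m was 98.4%, 96.5%, 100% and 98.8%, from which 22, 36, 27 and 124 cells under that depth were left out. For H2-K1 the thinned shares were 47.5%, 45.4%, 52.7% and 47.6% in beta-like cells and 95.04% to 98.8% in endothelial-like cells. Cd74, as a gauge of RNA from other cells, was found in 0.593%, 0.706%, 2.30% and 1.597% of thinned beta-like cells, below the share of B2m in each library. Thinned, the variance over the mean across beta-like cells, which is about 1 for counting alone, was 1.29, 1.36, 1.76 and 1.27 for B2m and 1.09, 1.10, 1.16 and 1.11 for H2-K1, so it was higher for B2m in all 4 libraries.

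Classes were tested with the quasi-likelihood test of edgeR on UMIs summed per class and library, with the library as a block and TMM scaling, which centres the fit on the bulk of the genes. The libraries are 1 per group, so the spread between them includes genotype and diet, and the p-values measure that spread alone. The differences below are log2 on that scale. All 9 members were higher in endothelial-like than in endocrine-like cells and 0 lower, where 31.7% of the 10962 genes tested were higher and 35.6% lower. The members' median difference was 3.39 against -0.09 over all genes. B2m differed by 5.30, 5.35, 4.67 and 4.72 in the 4 libraries (estimate 4.99, adjusted p = 1.91e-09), and H2-Q7 by 5.99 ± 0.30 (SD, n = 4 libraries, estimate 5.97, adjusted p = 2.06e-09). The estimate for H2-K1 was 1.85 (adjusted p = 4.13e-07), for H2-D1 3.12 (adjusted p = 1.05e-08) and for H2-T23 3.58 (adjusted p = 5.09e-10). The smallest difference was that of Tapbp, 1.72 (adjusted p = 2.7e-07), with Tap2 at 2.84, Tap1 at 3.39 and Nlrc5 at 4.599. With library totals in place of TMM the median of all genes moved to 0.92, with 6602 genes higher and 1726 lower in place of 3479 and 3900, and all 9 members were still higher.

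Immune-like cells gave the same counts against endocrine-like cells, 9 members higher and 0 lower, where 30.6% of all genes were higher and 37.4% lower. Here H2-Q7 differed by 7.53 (adjusted p = 8.57e-10), Nlrc5 by 6.26, B2m by 5.65 and Tap1 by 4.03, and Tapbp again by the least, 1.23 (adjusted p = 7.08e-06). The members' median was 3.38 against -0.16 over all genes, and with library totals 3.86 against 0.34, with 4653 genes higher and 2679 lower in place of 3349 and 4095. Between immune-like and endothelial-like cells the members split, with 5 higher in immune-like cells and 2 lower, where 26.3% of genes were higher and 26.8% lower. B2m (0.66, adjusted p = 0.0130), H2-K1 (0.64, adjusted p = 0.00347), H2-Q7 (1.56, adjusted p = 0.000119), Tap1 (0.64, adjusted p = 0.00640) and Nlrc5 (1.66, adjusted p = 0.00250) were higher. Tap2 (-0.49, adjusted p = 0.00797) and Tapbp (-0.48, adjusted p = 0.0114) were lower, and H2-D1 and H2-T23 did not pass (0.21 and -0.20, adjusted p = 0.291 and 0.214). This split rested on the scaling and on which immune cells were summed. With library totals 2 members were higher and 3 lower (all genes 1646 and 4641). Macrophage-like cells alone gave 3 higher and 1 lower of 8 tested (all genes 2326 and 2493 of 9614).

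Between the endocrine classes, each against beta-like cells, the same fit tested 8 members, since Nlrc5 had too few UMIs. In delta-like cells, which secrete somatostatin, 6 were higher and 0 lower, where 30.2% of 11785 genes were higher and 30.7% lower. H2-T23 differed by 1.61 (adjusted p = 2.26e-12), H2-Q7 by 0.996 (adjusted p = 0.0125), Tap2 by 0.87 (adjusted p = 3.87e-07), H2-D1 by 0.82 (adjusted p = 1.04e-09), Tapbp by 0.26 (adjusted p = 0.00418) and H2-K1 by 0.22 (adjusted p = 0.0142), each above 0 in 4 of 4 libraries. The call for H2-K1 was lost without the WT HFD library (adjusted p = 0.0852), and those for H2-K1 and Tapbp without a filter on low counts (adjusted p = 0.243 and 0.0987). Delta-like cells held 20.1 to 25.4 CPM of endothelial and 92.8 to 126.4 CPM of macrophage markers, more than beta-like cells, and with an ambient profile subtracted 6 members were again higher and 0 lower. Of the 9 macrophage markers 5 to 7 had a UMI in a delta-like sum, against 8 to 9 in a beta-like sum. Adgre1 was at 0 in each delta-like sum and Lyz2 in those of WT SCD, HH SCD and WT HFD. The sum does not show which markers carry it. B2m did not move with these 6 members, at -0.20, 0.33, -0.56 and -0.25 in the 4 libraries (estimate -0.17, adjusted p = 0.225). Without the HH SCD library, where B2m was above 0, 6 members were higher and 1 lower (all genes 3156 and 3181 of 11834). In alpha-like cells, which secrete glucagon, 3 were higher and 1 lower, where 30.3% of genes were higher and 31.4% lower. H2-T23 (1.02, adjusted p = 3.83e-09), H2-D1 (0.51, adjusted p = 1.43e-06) and Tap1 (0.49, adjusted p = 0.0191) were the higher ones and Tapbp the lower one (-0.39, adjusted p = 9.42e-05). The call for Tap1 was lost without the HH SCD library (adjusted p = 0.112) or the WT HFD library (adjusted p = 0.137). The 4 that did not pass were B2m (-0.07), H2-K1 (-0.15), H2-Q7 (-0.15) and Tap2 (0.16). Macrophage markers summed to 58.7, 74.4, 75.1 and 93.5 CPM in alpha-like cells against 49.1, 61.7, 56.6 and 49.1 CPM in beta-like cells, and stromal markers to 10.2 to 13.9 CPM against 0.171 to 3.25 CPM. Of the 9 macrophage markers 6 to 8 had a UMI in an alpha-like sum, and Adgre1 was at 0 in each. With an ambient profile subtracted, 3 members were higher in alpha-like cells and 1 lower.

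In PP-like cells 3 members were higher and 2 lower than in beta-like cells, where 24.2% of genes were higher and 27.0% lower. H2-T23 (0.93, adjusted p = 1.41e-06), H2-D1 (0.66, adjusted p = 1.1e-07) and Tap2 (0.48, adjusted p = 0.00881) were higher, and Tapbp (-0.73, adjusted p = 1.49e-06) and B2m (-0.44, adjusted p = 0.0182) lower. The call for B2m was lost without the WT SCD library (adjusted p = 0.0687) or the WT HFD library (-0.22, adjusted p = 0.226), and that for Tap2 without the HH HFD library (0.29, adjusted p = 0.177). The HH HFD sum of PP-like cells held 4400.5 CPM of B cell markers, against 0.473 to 7.13 CPM in the other 3 PP-like sums and 7.65 to 18.04 CPM in beta-like cells, and their part in the differences was not tested. H2-T23 and H2-D1 were thus the 2 members above beta-like cells in all 3 other endocrine classes. These differences depend on how the classes are scaled. With library totals the median of all genes moved to 0.59 in alpha-like, 0.97 in delta-like and 0.25 in PP-like cells (7955 genes higher and 1329 lower, 9726 and 690, and 4526 and 1802, in place of 3566 and 3695, 3563 and 3614, and 2851 and 3182). On that scale 7, 8 and 4 members were higher and 0, 0 and 1 lower, and B2m was above beta-like cells in alpha-like and delta-like cells (0.51 and 0.80). The members' medians were then 0.63, 1.55 and 0.34, against 0.04, 0.58 and 0.05 with TMM.

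**Figure D3:**
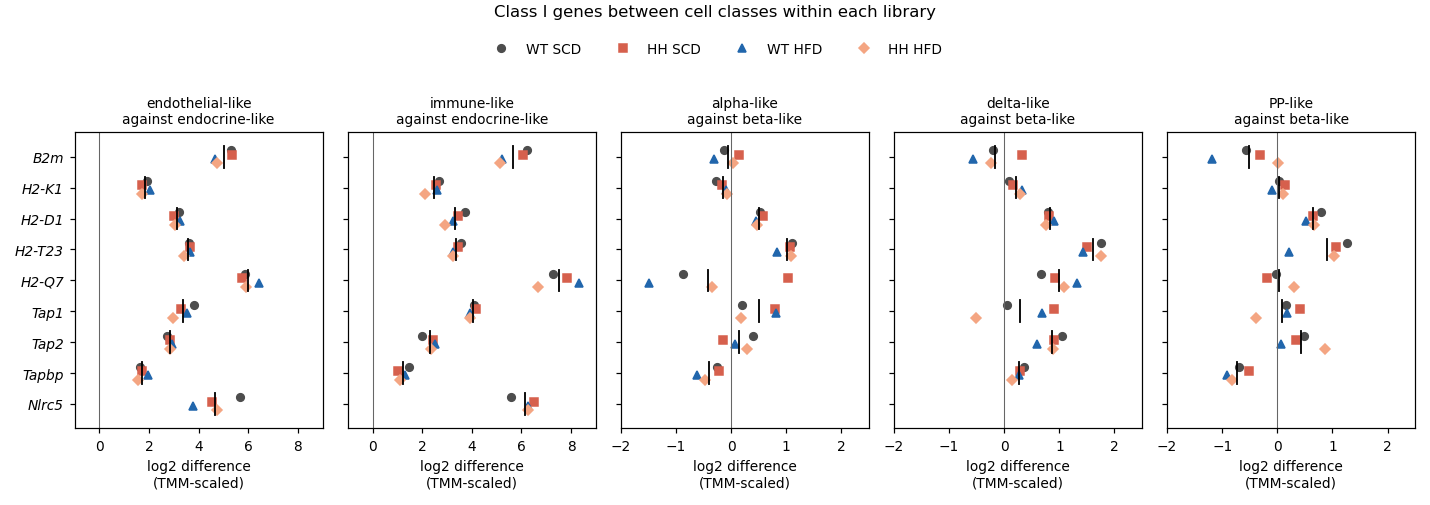
Difference of each gene between 2 classes in each of the 4 libraries (log2, TMM scaling), with 1 panel per contrast, 1 point per library and a bar at their mean. In the panel of endothelial-like against endocrine-like cells all 9 genes lie above 0, from a mean of 1.72 for Tapbp to 5.99 for H2-Q7.

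The steps around the members were read from fixed lists in the same fits. The 5 immunoproteasome genes were higher in 5 of 5 cases in endothelial-like cells (median 3.18, Psmb8 3.68, Psmb9 3.76 and Psmb10 3.18) and in immune-like cells (median 3.06), and also in alpha-like and delta-like cells against beta-like cells (5 of 5 each, medians 0.65 and 1.02). In PP-like against beta-like cells 4 of the 5 immunoproteasome genes were higher and 0 lower (median 0.63). The 3 catalytic subunits they replace and Psme3 did not follow, with 0 of 4 higher and 0 lower in endothelial-like and in immune-like cells (medians -0.14 and 0.18). Against beta-like cells, 3 of these 4 were lower and 0 higher in delta-like cells (median -0.28), 1 was lower and 1 higher in alpha-like cells (median 0.03) and 1 lower and 3 higher in PP-like cells (median 0.29). Chaperones of peptide loading went the other way. Of 7 genes tested, 4 were lower in endothelial-like cells, Calr (-0.99), Canx (-1.19), Pdia3 (-1.26) and Hspa5 (-1.80), and 2 higher, the trimming enzyme Erap1 (0.91) and the tapasin relative Tapbpl (0.84). In immune-like cells 5 of the 7 were lower and 0 higher. Against beta-like cells 6 were lower and 0 higher in alpha-like, 5 and 1 in delta-like, and 5 and 0 in PP-like cells. Interferon signalling genes were higher in 15 of 17 cases and lower in 0 in endothelial-like cells (median 2.36), and in 17 of 17 in immune-like cells (median 2.21). Against beta-like cells 5 of 15 were higher and 2 lower in alpha-like, 4 and 3 in delta-like, and 1 and 4 in PP-like cells. Of 16 interferon-stimulated genes 1 was higher and 7 lower in alpha-like, 9 and 4 in delta-like, and 4 and 5 in PP-like cells against beta-like cells. Of the other class I heavy chain genes 9 of 10 were higher in endothelial-like cells, with Fcgrt, the carrier of IgG, at 8.82 and H2-Q6 at 5.73, while H2-Q2 was lower (-5.21). Class II genes were higher in 7 of 7 cases in immune-like cells (median 11.16) and 4 of 7 in endothelial-like cells (median 2.16). The background for these counts is that given above for each contrast, and the lists were chosen with earlier results of these data known.

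Across the 39 sums of a class in a library, the genes whose log2 level ran most like the mean of the standardised members were Psmb8 (Pearson r = 0.976), Arpc1b (0.968), Psmb9 (0.964), Ostf1 (0.964) and Fxyd5 (0.958), of 5850 genes that averaged at least 20 CPM. The members themselves, each of which is part of that mean, ran from 0.850 for Tapbp to 0.986 for H2-D1. The sums of a library share its animals, depth and free RNA, so these values are a description.

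HH and WT were compared within each diet and class. With 1 library per group there is no replicate check and no test, and library, handling and genotype cannot be told apart. Values are log2 ratios of HH over WT in CPM, with exact binomial 95% intervals that cover counting error only, for genes with at least 100 UMIs in both libraries together. In beta-like cells on SCD, 0 of 8 members were past 1.5-fold, against 1.46% of 11451 genes. B2m had the largest ratio, -0.33 (interval -0.45 to -0.22, from 24.3 to 19.2 CPM), and the other 7 lay between -0.14 and -0.01. H2-K1 stood at -0.08 (-0.12 to -0.05) and H2-D1 at -0.01 (-0.06 to 0.05). The members' median was -0.10 (-0.28 to 0.04) and that of all genes -0.09.

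In beta-like cells on HFD, 0 of 8 members were past 1.5-fold as well, against 5.45% of 11439 genes. Tap2 had -0.51 (-0.69 to -0.33), B2m -0.47 (-0.56 to -0.38), H2-T23 -0.46 (-0.60 to -0.31) and Tapbp -0.23 (-0.32 to -0.14), and 7 of 8 members were below 0. The exception was H2-Q7 at 0.11 (-0.43 to 0.68). Without the cells of highest doublet score Tap2 was past 1.5-fold (-0.61). The median of the 8 was -0.21 (-0.39 to -0.15) against -0.15 over all genes, and scaling by the median of ratios brought it to -0.07, with H2-D1 and Tap1 then above 0 too (0.0094 and 0.12). The cells compared lay largely in different clusters, with 849 and 1389 HH HFD cells but 174 and 53 WT HFD cells in clusters 4 and 16. In beta-like cells without a UMI of the endothelial or immune markers the ratio of B2m was -0.15 on HFD and -0.17 on SCD. A cell of low depth meets that rule more easily, and the number and depth of these cells are not given. Over all beta-like cells the macrophage markers summed to 56.6 and 49.1 CPM in WT HFD and HH HFD beta-like cells and to 49.1 and 61.7 CPM in WT SCD and HH SCD, and the 6 B cell markers to 12.2, 18.0, 15.9 and 7.65 CPM in the same order. Without the cells rich in interferon-stimulated UMIs described below, B2m was at -0.30 on HFD and -0.34 on SCD.

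In the same beta-like cells the wider pathway was read at the same fold, against the same shares of all genes. On HFD, 13 of 17 interferon-stimulated genes tested were lower in HH and 0 higher (median -0.93), with Iigp1 at -1.76, Ifit3b -1.71, Ifit3 -1.67, Isg15 -1.39 and Oasl2 -1.21. Of 15 interferon signalling genes 2 were lower and 0 higher, among them Irf7 (-1.47). Of 5 immunoproteasome genes 1 was lower, Psmb8 (-0.67), and 0 higher. On SCD, 6 of 16 interferon-stimulated genes were lower and 1 higher (median -0.43), with Ifit3b at -2.11, Ifit3 -1.74 and Bst2 -1.05 and with Iigp1 at 1.34. Of 15 interferon signalling genes 2 were lower on SCD and of 9 class I transcription genes 1, with 0 higher in both lists. Of the 5 other class I heavy chain genes tested, H2-Q4 (-0.78) and Mr1 (-0.69) were lower on HFD and 0 higher. The class II genes, known from antigen-presenting cells, were higher in HH on HFD in 4 of 5 cases, Cd74 at 1.58, H2-Ab1 at 1.57, H2-Eb1 at 1.56 and H2-Aa at 1.37, and the part of RNA from such cells in the other ratios was not tested.

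In alpha-like cells 0 of 6 members were past 1.5-fold on SCD and on HFD, against 1.37% and 1.79% of genes, with medians of 0.03 and -0.01. Tap2 lay farthest from 0 there, at -0.57 (-1.03 to -0.11, 71 against 99 UMIs) on SCD. In delta-like cells 0 of 6 were past it on either diet, against 1.69% and 2.08% of genes, with medians of -0.0040 and -0.13, and H2-T23 was at -0.32 (-0.57 to -0.06) on SCD. B2m was at -0.01 (-0.32 to 0.31) and 0.01 (-0.24 to 0.26) in alpha-like cells. In PP-like cells 0 of 4 members were past 1.5-fold on SCD, where 54 of 3183 genes were higher and 28 lower. On HFD 1 of 5 was, where 36 of 3148 genes were higher and 53 lower. That member was B2m at 0.80 (0.24 to 1.39, 103 against 36 UMIs), the opposite direction to beta-like cells. The median of the 5 was 0.08 (-0.11 to 0.49) against -0.06 over all genes. The HH HFD sum of PP-like cells also held 4400.5 CPM of B cell markers against 7.13 in WT HFD, with 4 of 6 markers found. Their part in the B2m ratio was not tested.

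In endothelial-like cells on SCD, 0 of 8 members were past 1.5-fold, against 4.75% of 3414 genes, with a median of -0.04. B2m was at -0.09, H2-D1 at -0.10 (-0.18 to -0.01) and H2-K1 at -0.15 (-0.26 to -0.05). Tap1 lay farthest from 0 at -0.34 (-0.83 to 0.14), while H2-Q7 (0.18) and Tapbp (0.11) lay above 0 with intervals that held 0. On HFD, all 8 were below 0 and 1 was past 1.5-fold, against 5.07% of 5202 genes. That was Tap1 at -0.68 (-1.04 to -0.32, 63.2 against 101.1 CPM), followed by H2-T23 at -0.48 (-0.61 to -0.35), Tapbp at -0.44 (-0.62 to -0.27), Tap2 at -0.40 (-0.63 to -0.17), H2-K1 at -0.35 (-0.42 to -0.28), H2-D1 at -0.25 (-0.30 to -0.19) and B2m at -0.16 (-0.22 to -0.09). The median was -0.37 (-0.52 to -0.23) against -0.05 over all genes, and it lay between -0.43 and -0.24 under the other settings. In these cells the 9 macrophage markers summed to 12.4 CPM in WT HFD and 42.4 CPM in HH HFD and the 9 beta cell markers to 19660 and 53071 CPM. With an ambient profile subtracted, Tap1 was at -0.58 (under 1.5-fold) and B2m at -0.049, and with the endocrine bounds on all cells H2-T23 (-0.70) and Tap2 (-0.62) were past 1.5-fold beside Tap1.

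The immune-like cells mix types in shares that differ between libraries, as given above, and the part of the mixture in their ratios was not tested. On SCD, 1 of 6 members was past 1.5-fold, against 33.5% of 1386 genes, and on HFD 2 of 9 members, against 30.7% of 5257 genes. These were H2-Q7, higher in HH on SCD and lower on HFD, and Nlrc5, lower on HFD (-1.24). Within macrophage-like cells on HFD (122 HH and 74 WT cells) all 7 members tested were below 0, with a median of -0.63 (-0.74 to -0.40) against -0.11 over all genes. Of these 4 were past 1.5-fold, where 139 of 1515 genes were lower and 56 higher. H2-Q7 was at -0.98 (-1.56 to -0.42), Tap2 at -0.79 (-1.36 to -0.22), H2-D1 at -0.63 (-0.73 to -0.53) and B2m at -0.53 (-0.62 to -0.44). On SCD (36 HH and 55 WT cells) 3 of 4 members were below 0 and 0 past 1.5-fold, where 41 of 743 genes were lower and 22 higher. The median there was -0.20 (-0.36 to -0.04) against -0.03 over all genes. The 9 beta cell markers, a gauge of foreign RNA, summed to 126574 CPM in these HH HFD cells against 19418 CPM in WT HFD, and their part was not tested. T cell-like cells on HFD went the other way in 7 of 8 members (53 HH and 391 WT cells), with H2-K1 at 0.65 (0.51 to 0.79), H2-D1 at 0.65 (0.50 to 0.81) and H2-Q7 at 0.69 (0.45 to 0.93), and with a median of 0.44 (-0.05 to 0.80) against 0.10 over all genes. Macrophage markers in these T cell-like cells summed to 587 CPM in HH HFD and 62.3 CPM in WT HFD, and their part was not tested. Of the 9 markers 3 had a UMI in HH HFD and 7 in WT HFD. Lyz2, C1qa, C1qb, C1qc, Adgre1 and Csf1r were at 0 in HH HFD, so that sum rests on Cd68, Tyrobp and Fcer1g. On SCD (60 HH and 10 WT cells) the 4 members tested in T cell-like cells were all below 0, with a median of -0.46 (-0.76 to -0.11) against 0.21 over all genes, and they were B2m at -0.48 (-0.80 to -0.15), H2-K1 at -0.43 (-0.71 to -0.14), H2-D1 at -0.16 (-0.50 to 0.18) and H2-Q7 at -0.59 (-1.08 to -0.08). Dendritic-like cells on HFD (24 HH and 52 WT cells) were at -0.95 (-1.14 to -0.76) for B2m and -0.89 (-1.10 to -0.67) for H2-K1. On SCD (14 HH and 12 WT cells) B2m was at 0.51 (0.21 to 0.82) in them, the other direction, while H2-K1 was lower in HH on both diets. The median over the 3 members tested on SCD was 0.08 (-0.20 to 0.35) against -0.03 over all genes. On HFD the median over 7 members was -0.78 (-1.14 to -0.32) against -0.01. The macrophage markers summed to 9811 CPM in HH HFD and 2233 CPM in WT HFD dendritic-like cells, and their part was not tested.

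**Figure D4:**
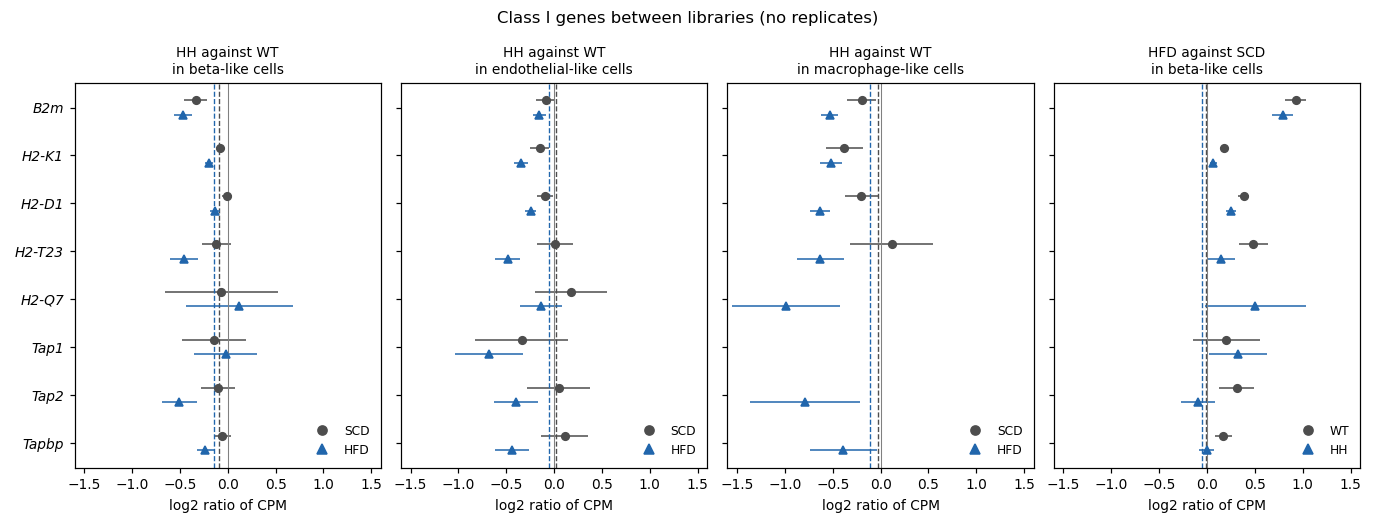
Log2 ratio of 2 libraries in CPM for 8 genes, with exact binomial 95% intervals and a dashed line at the median of all genes in that comparison. Panels show HH over WT in beta-like, endothelial-like and macrophage-like cells and HFD over SCD in beta-like cells, and Nlrc5 is left out because it had under 100 UMIs in each of them. The highest point is B2m in WT beta-like cells, HFD over SCD, at 0.92.

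Between the diets the animals differ in age as well (12 and 16 weeks), so diet and age cannot be told apart. In beta-like cells, 1 of 7 members in WT and 1 of 8 in HH were past 1.5-fold in HFD over SCD, against 8.24% and 12.7% of genes. Both times it was B2m, with log2 ratios of 0.92 (0.82 to 1.03) in WT and 0.79 (0.68 to 0.90) in HH. H2-D1 stood at 0.38 and 0.25 and H2-K1 at 0.18 and 0.07. Beta-like cells of the diets lay largely in different clusters, with 1148 WT SCD and 806 HH SCD cells but 53 WT HFD and 28 HH HFD cells in the largest one (cluster 0), and 849 and 1389 HH HFD cells in clusters 4 and 16. In WT all 7 were above 0, with a median of 0.31 (0.14 to 0.49) against -0.01 over all genes, and in HH 6 of 8 were, with a median of 0.20 (0.01 to 0.30) against -0.06. B2m UMIs per H2-K1 UMI in beta-like cells went from 0.112 in WT SCD to 0.187 in WT HFD and from 0.0939 in HH SCD to 0.155 in HH HFD. In beta-like cells without UMIs of endothelial or immune markers, whose number and depth are not given, B2m was still at 0.59 in WT and 0.61 in HH. Cd74, at 1.46 and 3.28, lay in the same direction, and the part of RNA from other cells was not tested. B2m was likewise above 0 in alpha-like cells, at 0.73 (0.44 to 1.02) in WT and 0.74 (0.47 to 1.02) in HH. There 1 of 6 members was past 1.5-fold upward and 0 downward in each genotype. Of all genes, 265 of 7310 were upward and 537 downward in WT, and 336 of 7552 and 560 in HH. The members' medians were 0.24 and 0.21 against -0.06 and -0.05 over all genes. Macrophage markers in these cells went from 58.7 to 75.1 CPM in WT and from 74.4 to 93.5 CPM in HH. In delta-like cells B2m was at 0.66 (0.29 to 1.02) in WT and at 0.34 in HH, where the interval reached down to 0.00079. Of 6 members 1 in WT and 0 in HH were past 1.5-fold upward, where 296 of 6293 and 283 of 6283 genes were. Their medians were 0.38 and 0.33, against 0.04 over all genes in both genotypes. B cell markers went from 2.12 to 8.95 CPM in WT and from 3.63 to 19.7 CPM in HH in alpha-like cells. In delta-like cells they went from 5.42 to 20.4 and from 6.48 to 20.5 CPM. The part of such RNA was not tested.

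Other pathway genes of beta-like cells lay in both directions between the diets, where 8.24% of all genes in WT and 12.7% in HH were past 1.5-fold. In WT, 6 of 17 interferon-stimulated genes were past 1.5-fold upward in HFD and 0 downward, among them Iigp1 (1.25), Bst2 (1.01) and Isg15 (0.94). In HH, 2 of 15 were upward, Bst2 (1.196) and Ifit3 (0.87), and 2 downward, Iigp1 (-1.86) and Rsad2 (-0.71). Irf1, a transcription factor of interferon gamma signalling, was lower in HFD in both genotypes, at -1.78 in WT and -1.79 in HH. Of the 15 interferon signalling genes tested, 1 was past 1.5-fold upward in WT, Irf7 (0.89), and 3 downward, Irf1, Ptpn2 (-0.76) and Jak2 (-0.60). In HH, 3 were upward, the receptor chains Ifngr2 (1.06) and Ifnar2 (0.72) and the transcription factor Irf9 (0.80), and 2 downward, Irf1 and the inhibitor Socs3 (-0.65). The chaperone Hspa5 was at -0.82 and -0.81. The class II list, carried by other cells, was higher in 4 of 5 cases and lower in 0 in both genotypes (medians 1.19 and 3.21), and the part of their RNA in these ratios was not tested.

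Endothelial-like cells of SCD lay mostly in cluster 6 (155 WT and 141 HH cells, with 1 and 1 of HFD) and those of HFD in cluster 7 (186 WT and 446 HH cells, with 49 and 36 of SCD). They had 8 of 8 members above 0 in WT in HFD over SCD, with a median of 0.51 (0.32 to 0.64) against 0.12 over all genes. H2-Q7 was largest, at 0.97 (0.67 to 1.28) in WT and 0.65 (0.35 to 0.97) in HH. It was the 1 member of 8 past 1.5-fold in each genotype. Of all genes, 496 of 4075 were past it upward and 438 downward in WT, and 494 of 4717 and 455 in HH. In HH endothelial-like cells the median was 0.14 (-0.01 to 0.36) against 0.05 over all genes, with B2m at 0.27 (0.19 to 0.36) and H2-D1 at 0.37 (0.30 to 0.45) but H2-T23 at 0.02 (-0.15 to 0.18) and Tapbp at -0.03 (-0.24 to 0.19). The B cell markers in these cells went from 3.44 CPM in SCD to 31.1 CPM in HFD in WT and from 0 to 36.0 CPM in HH, and the beta cell markers from 35668 to 19660 CPM in WT but from 19871 to 53071 CPM in HH. Their part was not tested.

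A small set of beta-like cells was rich in interferon-stimulated UMIs, and the class I genes were read in it. Cells with 5 or more UMIs summed over 10 interferon-stimulated genes (none of them a member) numbered 78, 50, 50 and 50, or 3.85%, 2.52%, 4.42% and 1.77% of beta-like cells. Counts fell across the cut of 5. There were 124, 130, 59 and 81 cells at 3 or 4 such UMIs and 25, 25, 13 and 19 at 5 or 6. From 8 to under 10 there were 13, 4, 3 and 10 cells, and at 10 or 11 there were 5, 3, 3 and 2. Cells with 10 or more numbered 31, 15, 30 and 19, so most of those lay above 11. Whether the cells with 5 or more form a separate type was not tested. B2m was at 53.8, 53.8, 214 and 198 CPM in these cells against 23.01, 18.2, 37.7 and 30.6 CPM in the other beta-like cells. Their log2 ratios were 1.22 (0.94 to 1.498), 1.56 (1.22 to 1.89), 2.51 (2.33 to 2.68) and 2.69 (2.49 to 2.89), with those of both HFD libraries above those of both SCD libraries. Tap1 had ratios of 2.16, 1.88, 2.53 and 2.84 and H2-T23 1.32, 0.64, 2.03 and 1.90. H2-K1 (0.45, 0.33, 0.74 and 0.81), H2-D1 (0.53, 0.29, 0.81 and 1.01) and Tapbp (0.32, 0.67, 1.10 and 1.03) had smaller ratios than Tap1 and B2m in each library. How all genes moved between these sets of cells was not computed. Tap2 was at 0.24, 0.46, 0.64 and 0.63, with intervals that reached below 0 in 3 libraries. With 10 or more such UMIs (31, 15, 30 and 19 cells) the ratios of Tap2 were 1.11, 1.73, 0.80 and 1.56 with all intervals above 0, and B2m stood at 81.3, 113.9, 278 and 236 CPM.

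H2-Q7 had 1, 5, 12 and 15 UMIs and Nlrc5 0, 3, 5 and 6 UMIs in these cells. The immunoproteasome gene Psmb8 had ratios of 2.53, 1.72, 2.41 and 3.20. Cd74, a class II gene of antigen-presenting cells, was at 2.26, 1.33, 0.63 and 4.46 CPM against 2.01, 1.72, 5.81 and 16.8 CPM in the other beta-like cells. Even in WT HFD, where B2m stood highest in the set, 214 CPM was under the lowest endothelial-like value, 1754 CPM. Median depths of the set and of the other beta-like cells were 28007 and 26301, 29340.5 and 26124, 31659 and 29724, and 20373.5 and 24207.5 UMIs.

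**Figure D5:**
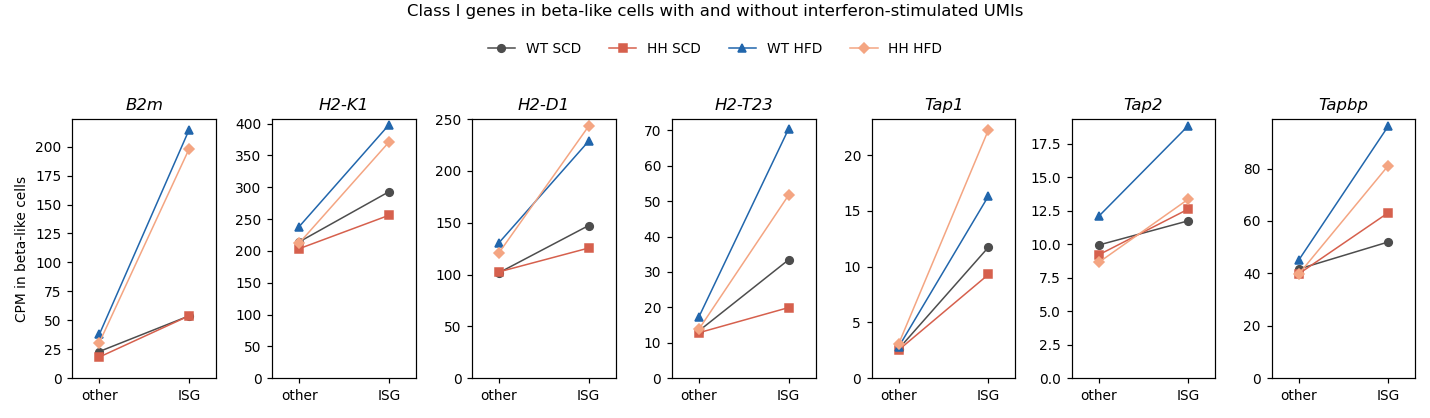
CPM of 7 genes (linear axes) in beta-like cells with 5 or more UMIs of interferon-stimulated genes and in the other beta-like cells, with 1 line per library. All lines rise from the other cells to that set, for B2m from 23.01 to 53.8 CPM in WT SCD and from 37.7 to 214 CPM in WT HFD.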

How the data were processed

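Filtered droplet matrices of 4 libraries were used. According to the labels and to the methods of the study, the authors made 10x 3′ v3.1 libraries, processed the reads with Cell Ranger 6.0 (6.0.2 in the matrix headers) against mm10, and deposited UMI counts as whole numbers for each gene and barcode, with no normalisation, ambient correction or doublet removal. The 9 members and all gene lists were chosen with earlier results of these data known.

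Cells needed under 10% mitochondrial UMIs and at most 50000 UMIs and 5000 genes, with at least 3000 UMIs and 2000 genes for endocrine-like cells and 1000 and 500 for others, since the study's endocrine bounds drop many small cells. Of 15081 cells, 481 were removed as doublets (the highest Scrublet scores per library at 0.8% per 1000 cells, since the automatic cut called 85). Clustering used 3000 variable genes, 30 components, 20 neighbours and Leiden resolution 1 without 97 member and pathway genes. A cluster was named from at least 3 markers at 0.25 of their highest cluster mean, found in at least 10% of its cells. Since names were rebuilt, classes need not match those of the study.

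UMIs were summed per class and library. Class contrasts used edgeR (glmQLFTest, TMM, filterByExpr, Benjamini-Hochberg at 0.05) with the library as block. Ratios between libraries were not tested. Where a gene had 0 UMIs, 3 counts served as floor. Intervals (exact Poisson, exact binomial, Clopper-Pearson, 95%) cover counting error only. Named genes were all 9 members, up to 5 genes per list and direction past 1.5-fold in beta-like cells, and the 5 genes most like the members; genes of the lists named in the class contrasts were chosen after their values were seen. Some genes that meet these rules are not reported here. Alternatives were other bounds, Leiden resolution 2, other scalings, ambient subtraction, fewer doublets, no filter, DESeq2 and leaving out each library. Steps were tested on simulated data. Versions were Python 3.11.15, scanpy 1.11.5, numpy 2.4.6, scipy 1.17.1, pandas 2.3.3, R 4.3.3, edgeR 4.0.16, limma 3.58.1 and DESeq2 1.42.0. Promoters came from RefSeq (GRCm38.p6) and positions from GENCODE M21 (GRCm38). The annotation the authors counted with is not given in the sources used here.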

Additional observations from a re-analysis of the deposited data

Results flagged for a closer look

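H2-Q7 had opposite log2 ratios of HH over WT in immune-like cells of the 2 diets. It was at 0.99 (exact binomial 95% interval 0.66 to 1.32) on SCD, from 139 HH and 77 WT cells, and at -1.33 (-1.48 to -1.17) on HFD, from 303 HH and 676 WT cells. With 1 library per group this difference was not tested. T cell-like cells, which had the highest H2-Q7 level in each library, were 60 of 139 HH and 10 of 77 WT cells on SCD and 53 of 303 HH and 391 of 676 WT cells on HFD. Within T cell-like cells H2-Q7 was at -0.59 on SCD and 0.69 on HFD, the opposite of the direction in the mixture on both diets. Macrophage markers in T cell-like cells summed to 451 CPM in WT SCD, 274 CPM in HH SCD, 62.3 CPM in WT HFD and 587 CPM in HH HFD, and their part was not tested. Of these 9 markers 3, 2, 7 and 3 had a UMI, in that order, and C1qa was at 0 in WT SCD, HH SCD and HH HFD.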

How the results depend on the processing

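No paired analysis was possible because the labels give no replicate numbers, and the library was already a block in each class contrast. Of the members' counts in class contrasts, 114 of 132 recomputed values stayed within 1.5 times, and 18 moved. Immune-like over endothelial-like, 5 members higher became 2 with library totals in place of TMM, 2 with endocrine bounds for all classes, 3 with macrophage-like cells and 3 with T cell-like cells in place of immune-like cells, and 3 to 5 with 1 library left out (3 without HH SCD), while 2 lower became 1 with macrophage-like cells and 1 to 2 with 1 library left out (1 without HH SCD or without WT HFD). Against beta-like cells, alpha-like went from 3 higher and 1 lower to 7 and 0 with library totals, 2 lower with DESeq2 and with no filter, and 2 to 3 higher and 1 to 2 lower with 1 library left out. Delta-like went from 6 higher to 4 with no filter and 5 to 7 with 1 library left out, and from 0 lower to 1 with no filter and 0 to 1 with 1 library left out, and PP-like from 2 lower to 1 with library totals and, with 1 library left out, to 2 to 3 higher and 1 to 2 lower. Signs turned in immune-like over endothelial-like cells for H2-D1 (-0.32 with library totals, -0.046 with endocrine bounds), H2-T23 (0.12) and H2-Q7 (-0.21, both with macrophage-like cells). In alpha-like cells they turned with library totals for B2m (0.51), H2-K1 (0.43), H2-Q7 (0.44) and Tapbp (0.20), for B2m without WT HFD (-0.13 to 0.014 with 1 library left out), and for H2-Q7 without WT SCD or WT HFD (-0.78 to 0.11) and at Leiden resolution 2 (0.00088). In delta-like cells B2m was at 0.80 with library totals. In PP-like cells H2-K1 (-0.054) and Tap1 (-0.029) turned with no filter, H2-Q7 with library totals (0.045) and without WT HFD (-0.71 to 0.088), and Tap1 without HH SCD (-0.052 to 0.24).

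Of the median ratios between libraries, 117 of 122 recomputed values stayed within their interval. In HH over WT, beta-like cells on HFD moved to -0.066 with median-of-ratios scaling and -0.12 without cells holding endothelial or immune marker UMIs, immune-like cells on SCD to -0.23 with endocrine bounds, and immune-like cells on HFD to 0.019 with equal weight for each cell and -1.08 with endocrine bounds. H2-K1 on SCD (0.0050) and H2-D1 on HFD (0.0094) turned with median-of-ratios scaling in beta-like cells, and H2-T23 of HH beta-like cells, HFD over SCD, turned to -0.093 without cells holding marker UMIs. Beta-like ratios of HH over WT whose interval spanned 0 turned as well, on SCD H2-D1 (0.084), H2-Q7 (0.024) and Tapbp (0.033) with median-of-ratios scaling and Tap2 (0.074) without cells holding marker UMIs, and on HFD Tap1 (up to 0.13, without interferon-rich cells) and H2-Q7 (-0.021, without the cells of highest doublet score). The use of single immune classes and of cells without interferon-stimulated UMIs was chosen after seeing the data. Apart from the alternatives that change the scaling or the cells, the cause was not tested. Depth limits Nlrc5, with 4 to 8 UMIs per library in beta-like cells, and H2-Q7 in endocrine-like cells.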

Other observations

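Stromal-like cells, a small class, had 700, 1047, 1761 and 1485 CPM of B2m and 512, 853, 1106 and 1332 CPM of H2-K1 in WT SCD, HH SCD, WT HFD and HH HFD. Ductal-like cells, which numbered 10 or more only in WT SCD and HH HFD, had there 375 and 346 CPM of B2m and 793 and 817 CPM of H2-K1, between the endocrine and the endothelial-like levels. Ifnb1, which encodes interferon beta, was found in macrophage-like cells at 488, 795, 133 and 138 CPM. H2-M2, a further class I heavy chain gene, was found in the same cells at 182, 273, 266 and 103 CPM.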
